A study of Mus musculus with 12 samples.

Results

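Of 4740 genomic regions bound by BMAL1 in mouse embryonic fibroblasts, 399 (8.42%) lay between genes yet close to one. Their midpoint fell outside the outer exon limits of every gene that the deposited count table places on 1 chromosome and strand. Their nearest edge was over 1 kb and at most 20 kb from the nearest start of such a gene. The 133 genes placed on several chromosomes or strands were left out of this rule, so some regions may lie in or beside them. Position chose these 399 among the 4740, which are themselves BMAL1 peaks of EtOH-treated cells. The EtOH signal therefore entered the choice, and the change with treatment did not enter it directly. All libraries came from cells of the 129/sv background that are per1 -/-, per2 -/-, nr1d1 -/- and nr1d2 -/- and carry a PER2-ER transgene, so the solvent controls share the 4 deletions and the transgene. Cells received 1 µM 4-hydroxytamoxifen (4-OHT) or its solvent, 0.1% ethanol (EtOH), for 4 h. BMAL1 ChIP-seq, ChIP input and stranded mRNA-seq were each measured in 2 EtOH and 2 4-OHT libraries, 12 libraries in all. The labels name neither the promoter of the transgene nor the number of clones, and they do not say that replicates were separate cultures, so p-values measure the spread between libraries, which may be technical. The data address how much BMAL1 these regions hold, how this differs after PER2-ER is exposed to its ligand, and what the mRNA of the nearest genes does.

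BMAL1 and CLOCK form the activating pair of the circadian clock and bind E-box DNA, of which CACGTG is the canonical form. PER proteins, together with CRY proteins, repress this pair and can remove it from DNA. Many sites of the pair lie away from promoters, in stretches that act as enhancers or that hold starts of long noncoding RNAs missing from older gene sets. A tamoxifen-responsive ER domain fused to a protein commonly holds it inactive until the ligand is added. The nearest gene start is used here only to name a region, and it does not show which gene the region acts on.

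Promoter windows from RefSeq (assembly GRCm38.p6, the coordinate system of mm10) gave sequence for part of these regions. The windows reach from 250 bases before a start to 50 after it. Of the 395 regions on chromosomes with windows, 49 lay within 1 kb of a RefSeq start that the authors' gene table does not have at that place, with the nearest RefSeq gene protein coding at 25 and a lncRNA at 24. A further check found the midpoint of 139 of the 395 inside a RefSeq gene body. The word "intergenic" therefore holds for the genes used from the authors' table and not for every annotation. All 3 regions upstream of Per1 were among these 139, inside the longer RefSeq extent of Per1 itself. Windows overlapped 31 regions, through 36 windows. The sequences below are the parts upstream of the RefSeq start that lie inside the region. They are shown as region DNA that can be read beside the BMAL1 values. Capitals mark the E-box hexamer CACGTG and the related hexamer CACGTT. All sequences shown but that of Mknk2 carry CACGTG, so they do not represent the 36 windows, of which 10 carry it. Windows without it near Maf and Elf2 are among those not shown. Both strands were searched, and on the other strand the related hexamer is spelled AACGTG.
5930430L01Rik start, minus strand, chr5:148995215-148995464: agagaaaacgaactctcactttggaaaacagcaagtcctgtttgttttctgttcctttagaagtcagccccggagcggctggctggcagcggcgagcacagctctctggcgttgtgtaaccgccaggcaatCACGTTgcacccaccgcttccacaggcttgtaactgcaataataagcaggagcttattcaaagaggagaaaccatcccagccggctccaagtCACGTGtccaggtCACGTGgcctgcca
Rcor2 start, plus strand, chr19:7267173-7267393: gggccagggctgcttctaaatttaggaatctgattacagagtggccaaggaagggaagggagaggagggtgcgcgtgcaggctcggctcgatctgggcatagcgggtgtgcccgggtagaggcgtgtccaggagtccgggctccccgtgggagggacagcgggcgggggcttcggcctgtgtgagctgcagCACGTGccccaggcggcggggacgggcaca
Dgkh start, minus strand, chr14:78732730-78732979: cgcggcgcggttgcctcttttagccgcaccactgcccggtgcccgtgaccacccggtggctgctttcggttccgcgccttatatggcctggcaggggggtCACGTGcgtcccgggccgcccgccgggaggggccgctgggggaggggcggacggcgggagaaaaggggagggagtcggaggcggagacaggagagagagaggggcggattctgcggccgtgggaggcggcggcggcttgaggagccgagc
Gm26797 start, minus strand, chr9:122310929-122311031: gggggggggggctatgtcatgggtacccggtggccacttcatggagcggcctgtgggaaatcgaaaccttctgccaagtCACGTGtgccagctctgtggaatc
Gm34455 start, minus strand, chr17:26504385-26504597: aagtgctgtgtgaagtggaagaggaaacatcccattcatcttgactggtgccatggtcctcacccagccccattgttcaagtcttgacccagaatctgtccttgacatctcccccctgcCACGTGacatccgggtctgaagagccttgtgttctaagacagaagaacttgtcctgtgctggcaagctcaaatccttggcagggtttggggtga
Tfdp1 start, plus strand, chr8:13338501-13338671: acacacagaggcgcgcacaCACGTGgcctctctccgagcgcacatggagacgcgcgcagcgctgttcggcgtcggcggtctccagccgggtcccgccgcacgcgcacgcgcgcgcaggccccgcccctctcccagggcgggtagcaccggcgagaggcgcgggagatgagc
Mknk2 start, minus strand, chr10:80676294-80676543: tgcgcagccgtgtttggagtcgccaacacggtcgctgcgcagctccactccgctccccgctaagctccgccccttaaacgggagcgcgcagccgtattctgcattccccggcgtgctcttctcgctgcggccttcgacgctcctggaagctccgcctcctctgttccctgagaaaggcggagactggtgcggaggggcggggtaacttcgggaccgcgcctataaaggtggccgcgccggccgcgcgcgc

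The start of 5930430L01Rik, a lncRNA, lies in a region named here by the Gm15408 start 11365 bp away. Its window carries 2 copies of CACGTG with 7 bases between them, plus the related hexamer further upstream. A pair of such hexamers of either kind 6 or 7 bases apart stood in 1 of the 36 windows and in 6 of all 32851. That region read 898 and 909.6 RP10M with EtOH (reads per 10000000 library reads) and 170.3 and 214 with 4-OHT, the fifth highest of the 399. The Mknk2 window, in a region 4232 bp from the Mknk2 start of the count table, holds none of these hexamers, and its region read 204 and 193 RP10M with EtOH and 48.8 and 48.8 with 4-OHT. Mknk2 encodes a MAPK-interacting kinase. Mean RP10M with EtOH and 4-OHT were 117 and 29.2 at the Rcor2 region, 75.6 and 17.8 at Dgkh and 33.9 and 11.5 at Gm34455. At the Gm26797 and Tfdp1 starts they were 39.3 and 6.66, and 29.7 and 7.86. The Maf and Elf2 regions, whose windows lack CACGTG, read 328 and 84.9, and 96.3 and 33.0.

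CACGTG stood in 10 of the 36 windows (27.8%), against 7.15% of all 32851 windows. It stood in 38.4% of the windows that overlap BMAL1 regions within 1 kb of a gene start, in 29.6% of those at regions inside genes and in 41.7% of those at intergenic regions beyond 20 kb. The related hexamer, on either strand, stood in 16.7% of the 36 and 4.68% of all. GC content differs as well, with a median of 63.8% in the 36 windows and 52.7% in all. The 10 regions with CACGTG in a window had a median EtOH level of 36.6 RP10M (17.4 to 904) and the 21 without had 26.5 (6.54 to 328). These are descriptions of letters in the windows and of the levels beside them, and regions that reach past their window can hold further E-boxes.

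MicroRNA genes were the nearest named starts at several strong regions, so mature products are shown from RefSeq, together with a let-7c product that shares a seed with let-7a, with the seed (bases 2 to 8) in capitals.
mmu-miR-670-5p: aUCCCUGAguguauguggugaa
mmu-miR-23a-3p: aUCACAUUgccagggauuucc
mmu-let-7a-5p: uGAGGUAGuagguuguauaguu
mmu-let-7c-5p: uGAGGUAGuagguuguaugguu
The let-7a and let-7c products share the seed GAGGUAG, and regions were nearest to one gene of each, Mirlet7a-1 (7416 bp) and Mirlet7c-2 (19505 bp), the latter a weak region with an EtOH mean of 13.4 RP10M. The mRNA libraries do not measure mature microRNAs, so no value for these RNAs is given.

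The regions named 324 different genes. For 266 genes there was 1 region, for 45 there were 2, for 9 there were 3, and for Mir23a, Msl1, Cirbp and Tnrc18 there were 4 each. Regions lay upstream of the nearest start in 323 cases (81.0%) and beyond the end of that gene in 76. Regions inside genes are excluded, so a downstream region needs a gene of about 20 kb or less. The upstream share is thus set in part by the rule, to an extent that was not tested. Their median distance was 6665 bp and their median length 217 bp. In 120 cases the nearest gene also had a BMAL1 region within 1 kb of its start. Neighbouring regions are not independent, as 9 of the 399 are pieces of a called peak that was split.

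**Figure D1:**
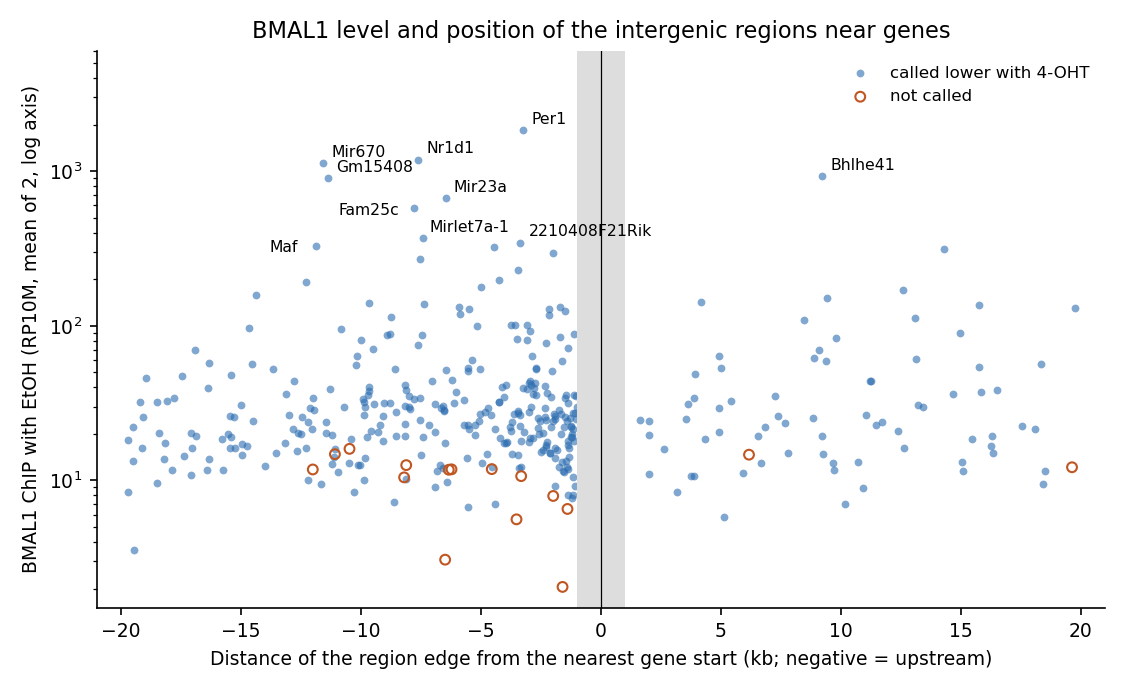
Position and BMAL1 level of the 399 intergenic regions near genes: the x axis gives the distance in kb from the nearest gene start (negative is upstream, the grey band is the excluded 1 kb) and the y axis the mean RP10M of the 2 EtOH ChIP libraries on a log axis. Filled points were called lower with 4-OHT and open points were not called; the 10 strongest regions carry the name of the nearest gene, and 9 of these lie upstream.

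With 4-OHT most of these regions were still above input. That they stand above input with EtOH is fixed by the choice of peaks called on EtOH cells and is given as a description. With EtOH, 398 of 399 were above input in edgeR's quasi-likelihood test (adjusted p below 0.05; 99.5% of all 4740 regions), at a median of 11.8 times the input. With 4-OHT, 315 (78.9%) were above input against 80.6% of all regions, at a median of 3.69 times the input. Without the 4-OHT replicate 2 libraries, which are the deepest of the 4-OHT group, that count was 162. Median levels were 25.2 and 23.8 RP10M in the EtOH ChIP libraries and 7.28 and 8.21 in the 4-OHT ChIP libraries. Input medians lay between 2.12 and 2.40 in all 4 input libraries.

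BMAL1 was lower with 4-OHT at 383 of the 399 regions (96.0%, with 93.8% of all 4740 regions called lower) and higher at 0 (0% of all). The count of 0 higher also held at an unadjusted p below 0.05 and in DESeq2. The median log2 change was -1.76 (quartiles -2.03 and -1.38), a median 3.38-fold lower level, and the median over all regions was -1.66. Each of the 399 estimates was negative, from -3.38 to -0.19. Peaks called on EtOH cells cannot include sites bound only with 4-OHT, and they are chosen for high EtOH values, so the absence of higher calls and the common sign are descriptions of EtOH peaks. How much of the difference this choice accounts for was not tested. At 391 regions both EtOH libraries were above both 4-OHT libraries, as at 98% of all regions. The share called lower was therefore near that of the whole set.

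The call rests on scaling by library totals: with TMM factors over the regions, which center the change of all regions near 0 (median 0.02), 19 of the 399 were lower (4.81% of all) and 5 higher (1.39% of all). When the change of the input libraries was subtracted, 209 were lower and 0 higher. The input itself was called different at 0 of the 399 (0% of all) in edgeR, with 20 at an unadjusted p below 0.05, of which 14 were higher with 4-OHT. Over all 4740 regions, 218 had such a p, of which 159 were higher with 4-OHT.

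The size of the change was compared with that of the other region classes by library medians. Regions within 1 kb of a start (2944) had a median log2 change of -1.64, regions inside genes (942) -1.72 and intergenic regions beyond 20 kb (455) -1.63. The difference between class medians changed by -0.14, -0.01 and -0.16 on the log2 scale between EtOH and 4-OHT libraries, in that order. Exact two-sided permutation tests over the 4 libraries gave p = 0.33, 1 and 0.33, where 0.33 is the smallest p that 2 against 2 allows, so none of these differences could pass.

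**Figure D2:**
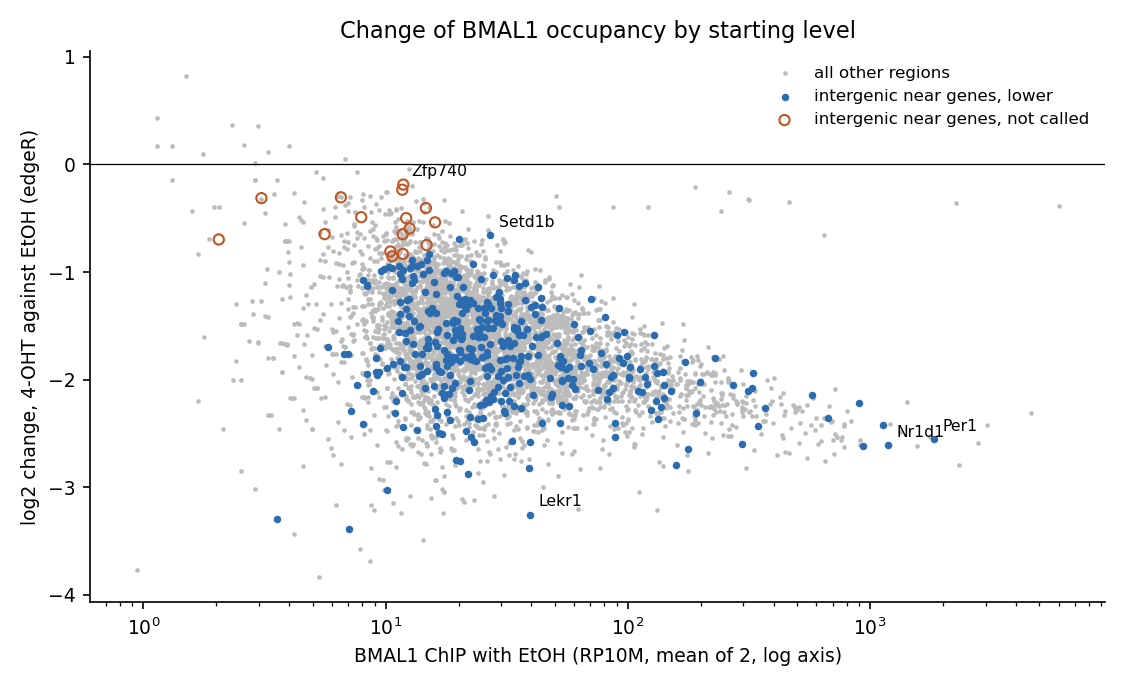
Change of BMAL1 by starting level: the x axis gives the mean RP10M of the 2 EtOH ChIP libraries (log axis) and the y axis the log2 change with 4-OHT from edgeR, with library totals as the scale. Grey points are the 4341 other regions, blue points the 383 intergenic regions near genes called lower and open points the 16 not called, which lie at the low end of the levels.

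The EtOH level is also the baseline of the log2 change, so a split by it is a description, with no test. Split in this way into 4 groups of 100, 100, 99 and 100 regions, median log2 changes were -1.43, -1.66, -1.70 and -1.98 from weakest to strongest. The weakest group held 15 of the 16 regions that were not called. With 4-OHT, 52, 73, 91 and 99 regions of these groups were above input. EtOH counts behind these levels ranged from 2 reads in a library to 3148, so the weakest group has the widest counting error.

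Level showed no steady rise or fall with distance. Median EtOH levels were 20.1 RP10M at 57 regions over 1 to 2 kb away, 26.4 at 103 regions over 2 to 5 kb, 29.6 at 115 over 5 to 10 kb and 20.7 at 124 over 10 to 20 kb. Shares reaching 100 RP10M were 3.51%, 12.6%, 12.2% and 8.06% in that order. Shares above input with 4-OHT were 73.7%, 78.6%, 88.7% and 72.6%. The median log2 changes were -1.79, -1.63, -1.70 and -1.82 in the same order, and 54, 100, 109 and 120 regions were lower. Upstream and downstream regions had medians of -1.72 and -1.81. The 49 regions within 1 kb of a RefSeq start had a median change of -1.61, with 91.8% above input under 4-OHT, and the 346 others -1.77 and 76.9%.

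The strongest region lay 3254 bp upstream of Per1 (chr11:69094548-69095702), a core repressor gene of the clock that is deleted in these cells. It read 1881 and 1785 RP10M with EtOH and 290.4 and 332 with 4-OHT. This is a log2 change of -2.55 ± 0.10 (SE; edgeR adjusted p = 1.82e-135). With 4-OHT it was still 26.6 times its input. Next to it, a region 1509 bp upstream of Per1 read 142 and 107 RP10M with EtOH and 21.1 and 28.5 with 4-OHT, and one 1117 bp upstream read 97.0 and 80.5 against 9.46 and 19.3. In all 3 the groups did not overlap, as at 98% of all regions, and the log2 changes of the closer pair were -2.28 and -2.53.

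Second was a region 7626 bp upstream of Nr1d1 (chr11:98782868-98783741), the gene of the repressor REV-ERBα, also deleted here. Its values were 1147 and 1225 RP10M with EtOH and 190.7 and 198 with 4-OHT (log2 -2.61 ± 0.11; edgeR adjusted p = 3.77e-127). The region stands 12028 bp from the start of Msl1, the next nearest, and inside the RefSeq lncRNA Gm31862. Msl1, a subunit of a histone acetyltransferase complex, was the nearest start of 4 further regions, whose EtOH means ran from 7.2 to 88.8 RP10M.

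Bhlhe41, which encodes the E-box-binding repressor DEC2, had a region 9208 bp from its start on the far side of the gene (chr6:145855648-145856212). It read 930.2 and 935 RP10M with EtOH and 144 and 158 with 4-OHT (log2 -2.62 ± 0.11; edgeR adjusted p = 5.56e-119). Among the 10 strongest this was the one region on the downstream side. Klf9, a Krüppel-like factor gene induced by glucocorticoids, had 2 upstream regions that behaved unequally. The one 4438 bp away read 318 and 331 RP10M with EtOH and 81.5 and 73.4 with 4-OHT (log2 -2.07 ± 0.13), and the one 6030 bp away read 34.8 and 40.3 against 15.3 and 19.3 (log2 -1.10 ± 0.29). Both lie within 1 kb of the start of a RefSeq lncRNA, 2410080I02Rik. The 7 regions near genes of the list of CLOCK-BMAL1 targets, at Per1, Nr1d1, Bhlhe41 and Klf9, were all called lower (93.8% of all regions), at a median log2 of -2.53 (-1.66 over all regions).

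**Figure D3:**
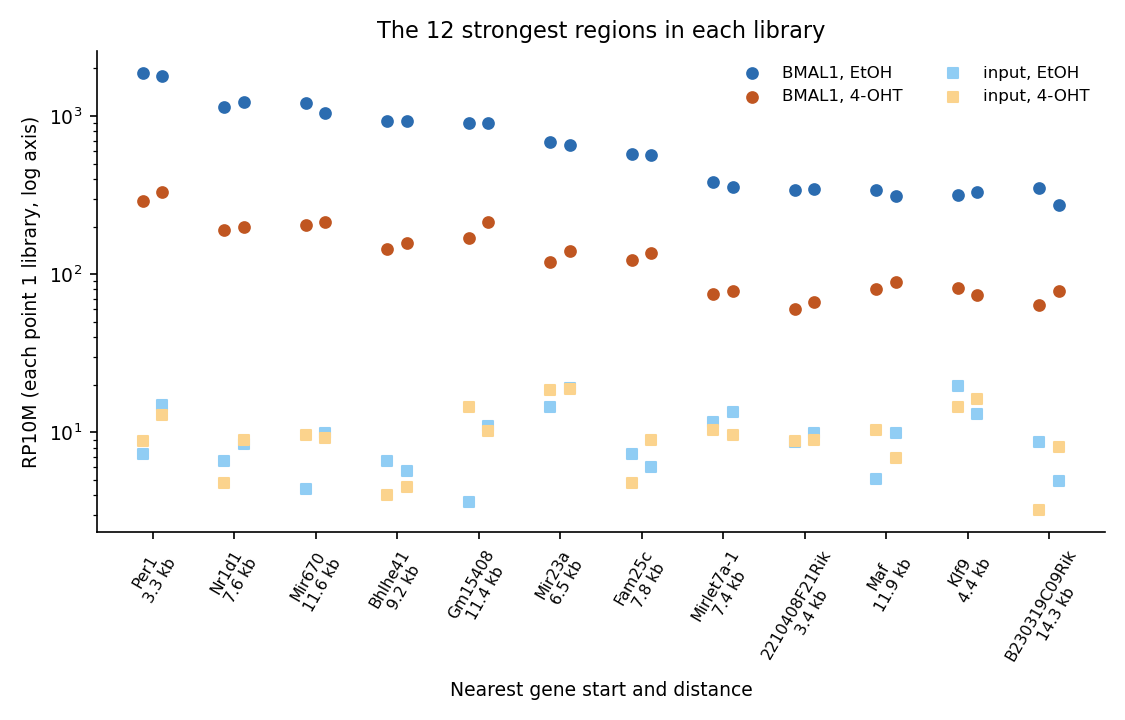
BMAL1 ChIP and input values of the 12 strongest intergenic regions near genes: each point is 1 library in RP10M on a log axis, with the nearest gene and its distance under each column. At all 12, both 4-OHT ChIP libraries lie below both EtOH ChIP libraries and above all 4 inputs. The order of the ChIP libraries was the same at 98% of all regions.

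Strong regions near microRNA genes also had EtOH values above all 4-OHT values, as had 98% of all regions. The one 11586 bp upstream of Mir670 (chr2:94272985-94273834) read 1201 and 1050.2 RP10M with EtOH and 205 and 213 with 4-OHT (log2 -2.42 ± 0.11). It lies 7882 bp from the start of the RefSeq host transcript Mir670hg. Upstream of Mir23a, the first gene of a cluster that also holds Mir27a, 4 regions were found. The main one, 6473 bp away (chr8:84200682-84202045), read 684 and 652 RP10M with EtOH and 119 and 140.0 with 4-OHT (log2 -2.36 ± 0.11), and the other three had EtOH means of 33.3, 19.0 and 14.8. The region 7416 bp upstream of Mirlet7a-1 (chr13:48545688-48547012) read 382 and 355 against 74.96 and 78.2 (log2 -2.26 ± 0.13). In all, 22 regions were nearest to 16 small RNA genes, and all 22 were called lower, at a median log2 of -1.98, beside 93.8% and -1.66 for all regions.

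Other strong regions had no circadian gene beside them. At Fam25c, 7805 bp away (chr14:34363198-34364092), values were 577 and 570.5 RP10M with EtOH and 123 and 135 with 4-OHT. A region 3365 bp upstream of 2210408F21Rik, inside the RefSeq extent of the lncRNA gene Lncpint, read 343 and 347 against 60.4 and 66.6. Upstream of Maf, a bZIP transcription factor gene, a region at 11887 bp read 343 and 312 against 80.1 and 89.8, with the start of the RefSeq lncRNA Gm51552 inside it. Their log2 changes were -2.14, -2.43 and -1.93, and no EtOH value overlapped a 4-OHT value, as at 98% of all regions. In total 39 regions (9.77%) reached 100 RP10M with EtOH, close to the 9.70% of all regions that did.

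Among regions above the median EtOH level, the deepest fall was 2778 bp upstream of Lekr1, from 39.3 and 39.7 RP10M to 4.37 and 3.86 (log2 -3.26 ± 0.38; edgeR adjusted p = 6.70e-17). With 4-OHT this region was 1.52 times its input and was not called above it. The region near Efcab10 fell from 160.0 and 156 to 10.9 and 31.4 (log2 -2.79), and its 4-OHT libraries were unequal. Osbpl2, a gene of the oxysterol-binding protein family, had a region that fell from 34.1 and 44.2 to 6.55 and 4.83 (log2 -2.82). At Kdm6b, which encodes a demethylase of the repressive H3K27me3 mark, the region 4981 bp upstream fell from 180.0 and 173 to 29.1 and 27.5 (log2 -2.64). Igsf8 and Ano10 had regions with log2 changes of -2.60 and -2.58. The Ano10 region is the one with the Gm26797 start shown above, and its change was -0.82 (edgeR adjusted p = 0.56) once the input change was subtracted.

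The smallest changes above the median level were near Setd1b, which encodes a histone H3K4 methyltransferase. That region read 27.4 and 26.7 RP10M with EtOH and 16.7 and 17.4 with 4-OHT (log2 -0.66 ± 0.31; edgeR adjusted p = 0.034). Leaving out any 1 of the 4 libraries raised its adjusted p to between 0.068 and 0.13. Near Rere, Herpud1, Mir3089, Irf2bp2 and Malat1 the log2 changes lay between -1.07 and -1.02. The Rere region lost its call without EtOH replicate 2 (edgeR adjusted p = 0.057), and the Mir3089 region without EtOH replicate 1 (0.062) or without 4-OHT replicate 2 (0.16).

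The 16 regions not called had low levels, the 6 highest of them between 11.8 and 16.0 RP10M with EtOH. The highest, near Tmpo, read 15.5 and 16.4 with EtOH and 10.9 and 11.1 with 4-OHT (log2 -0.54 ± 0.37; edgeR adjusted p = 0.15). Near Zfp740 the groups overlapped, at 16.3 and 7.37 against 5.82 and 13.04 (log2 -0.19 ± 0.41). Those near BC022687, Exosc6, Mrps18a and Csf1 had log2 changes from -0.75 to -0.40. Differences of that size did not pass the test at these counts. How large a difference these counts could detect was not tested.

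For regions near genes of other families, counts called lower are set beside the 93.8% of all regions (median log2 -1.66), and nothing particular to a family is read from them. Of 16 regions near AP-1 and immediate early genes 15 were lower (median log2 -1.46), as were all 6 near nuclear receptor genes (-1.37), all 5 near genes of TGF-β and BMP signalling (-1.78) and all 6 near MAPK and cell cycle kinase genes (-1.57). The strongest of the 16 near AP-1 and immediate early genes was 8152 bp from the immediate early gene Ier3 (48.1 and 34.6 RP10M against 13.1 and 17.4). Near Id3, an inhibitor of bHLH factors that responds to BMP, a region read 48.1 and 49.3 against 12.4 and 10.1. Of 3 regions near solute carrier genes 2 were lower, the strongest near the amino acid transporter gene Slc38a2 (73.3 and 87.3 against 29.1 and 30.9). The single regions near Timp2 and Cyr61 were called lower (log2 -2.48 and -1.19), and the Cyr61 region lost its call without 4-OHT replicate 1 (edgeR adjusted p = 0.071).

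Just inside 1 kb and 20 kb lay the regions near Tfdp1 (1003 bp), Irf2bp2 (1038 bp), Krt8 (19740 bp) and Wisp2 (19722 bp), with log2 changes of -1.82, -1.06, -2.20 and -1.12. Just outside lay those near Large (996 bp), Jun (967 bp), Solh (20051 bp) and Bcl9l (20130 bp), with -2.31, -1.76, -1.64 and -1.80. Of these 8 the Bcl9l region, at 5.18 and 1.70 RP10M with EtOH, was not called and the other seven were lower.

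The mRNA of the nearest genes was examined next. The mRNA libraries held 60267540 to 89695667 counted reads and the ChIP and input libraries 12481308 to 33454366 reads. Of 10 fibroblast markers 8 reached 1 CPM (counts per 1000000 counted reads), and the list summed to 27834 to 30407 CPM per library. The others were Thy1, at 0, and Dcn, at 0.11 to 0.20 CPM. Summed markers of epithelial cells gave 12.5 to 16.7 CPM, and those of blood, endothelial, neural, muscle and pluripotent cells at most 11.04. The epithelial marker Cdh1 alone read 11.7 to 15.8 CPM, beside 11.1 to 13.3 for the fibroblast marker Pdgfra. The endothelial sum was 2.43 to 2.75 CPM with EtOH and 1.03 to 1.21 with 4-OHT, and the pluripotent sum 10.0 to 11.04 and 7.38 to 7.64. Kdr, a VEGF receptor gene, and Sox2, a pluripotency factor gene, fell within them (edgeR adjusted p = 7.82e-07 and 0.00080), and their part in the results was not tested. Reads over the deleted genes were present in all libraries (Per1 36.7 to 45.4 CPM, Per2 549 to 610, Nr1d1 16.4 to 55.9, Nr1d2 35.3 to 92.5). Counts over whole genes do not show whether the deleted parts are transcribed, and Per2 reads may include the transgene.

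Of the 324 nearest genes 265 were expressed enough to test, and 24 of them changed with 4-OHT (9.06%, against 2.44% of 13216 genes). Of these 11 rose (0.802% of all genes tested rose) and 13 fell (1.63%). The share was 14 of 86 (16.3%) for genes that also had a BMAL1 region within 1 kb of the start and 10 of 179 (5.59%) for those that did not. Among 2751 tested genes with a region within 1 kb that were not the nearest gene of any of the 399, 67 changed (2.44%), and among 8851 with no region within 20 kb, 200 changed (2.26%). The tested nearest genes had a median of 61.6 CPM, all tested genes 32.4 and the genes bound only within 1 kb 57.2. Between these groups of genes the shares are descriptions, with no test of their difference.

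That share of the nearest genes was above the one of all genes in each of the 9 settings tried. The settings reuse the same libraries, so they are not repeats of the result. In fits on all 4 mRNA libraries it lay between 5.28% and 24.2%, against 1.60% to 8.54%. The highest pair, 24.2% and 8.54%, came from a crossed pairing of replicate numbers added after seeing the data. Without the circadian lists the share was 22 of 261 (8.43%) in the main fit. Single libraries moved the counts. Leaving out the 4-OHT libraries in turn gave 17 (replicate 1) and 4 rises (replicate 2), and leaving out the EtOH libraries 7 and 4. Falls numbered 8 when EtOH replicate 1 was left out. Of the 24 genes, 8 kept their call in all alternatives tried.

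**Figure D4:**
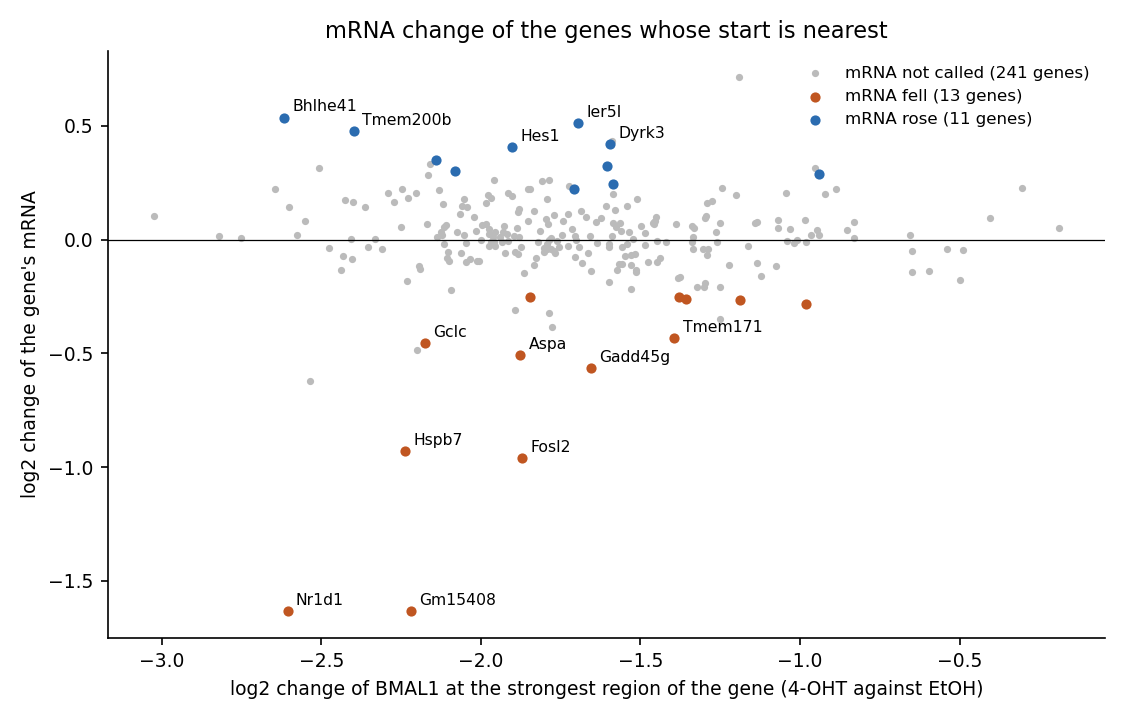
mRNA change of the 265 tested nearest genes: the x axis gives the log2 change of BMAL1 at the strongest region of each gene and the y axis the log2 change of its mRNA, both for 4-OHT against EtOH from edgeR. BMAL1 estimates are all below 0, while the mRNA of 11 genes rose, of 13 fell and of 241 was not called.

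Nr1d1 fell most clearly. It read 49.2 and 55.9 CPM with EtOH and 16.4 and 17.5 with 4-OHT (log2 -1.63 ± 0.08; edgeR adjusted p = 1.20e-19). Gm15408, the gene named by the region with the paired E-boxes, fell by as much, from 1.14 and 1.40 CPM to 0.431 and 0.387 (log2 -1.63 ± 0.24; edgeR adjusted p = 5.38e-06). Its level is low, and the groups did not overlap, which for a gene chosen by its call is a description. Bhlhe41 rose, from 4.06 and 4.26 CPM to 6.03 and 6.05 (log2 0.54 ± 0.11; edgeR adjusted p = 0.0023), a call lost without EtOH replicate 1 (0.067). Per1 read 42.2 and 36.7 CPM against 38.1 and 45.4 and Klf9 47.2 and 50.2 against 50.6 and 49.4, and neither passed the test (log2 0.08 and 0.03), beside log2 changes of -2.55 and -2.07 for BMAL1 at their strongest regions.

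Of 10 AP-1 and immediate early genes tested as nearest genes, 4 changed, and of all 27 tested genes of that list 8 did. Fosl2, a FOS family subunit of AP-1, fell from 254 and 233 CPM to 123 and 128 (log2 -0.96 ± 0.07; edgeR adjusted p = 5.94e-15). Its region, 3346 bp upstream, was weak, at 15.6 and 20.4 RP10M with EtOH and 4.37 and 5.31 with 4-OHT. Junb, another AP-1 subunit, rose from 78.3 and 76.5 CPM to 90.4 and 107 (log2 0.35 ± 0.07; edgeR adjusted p = 0.0011), a call lost without 4-OHT replicate 2 (0.19). The 3 regions around Junb had EtOH means of 40.8, 24.04 and 2.05 RP10M, and the last, only 5 bp long, was not called. Ier5 and Dusp6 rose by 0.25 and 0.29 on the log2 scale and lost their calls in at least 3 of the fits that leave out 1 library.

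Several falls concerned genes with other roles. Gadd45g, a stress-response gene, fell from 43.8 and 40.6 CPM to 26.3 and 30.9 (log2 -0.56 ± 0.08; edgeR adjusted p = 2.23e-06). Gclc, the catalytic subunit of the enzyme that starts glutathione synthesis, fell from 43.5 and 49.4 CPM to 34.9 and 33.0 (log2 -0.46 ± 0.08; edgeR adjusted p = 5.34e-05). Aspa, which encodes aspartoacylase, fell from 25.003 and 22.9 to 17.1 and 16.7 CPM (log2 -0.51). Tmem171 fell from 12.7 in both EtOH libraries to 8.93 and 9.84 CPM (log2 -0.43). In these 4 genes no EtOH value overlapped a 4-OHT value, and the calls held in all alternatives tried. The genes were chosen because they were called, so this separation of 2 against 2 libraries is no added support. Hspb7, a small heat shock protein gene, fell from 1.59 and 1.55 to 0.847 and 0.808 CPM (log2 -0.93), a call that DESeq2 did not share.

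Of the rises, that of Ier5l, an immediate early response family gene, held in all alternatives, from 21.7 and 23.2 CPM to 28.3 and 35.6 (log2 0.51 ± 0.09; edgeR adjusted p = 9.44e-05). Hes1, a repressor gene downstream of Notch, rose from 8.99 and 9.47 to 11.9 and 12.6 CPM (log2 0.41). Hes1 lost its call without EtOH replicate 1 (edgeR adjusted p = 0.15) or without 4-OHT replicate 2 (0.12). Irf2bp2, a corepressor gene with 3 of the regions, rose from 102 and 101 to 122 and 132 CPM (log2 0.32; edgeR adjusted p = 0.074 without EtOH replicate 2). Other called genes were Phlda3, Tmem200b, Dyrk3 and Wisp1, which rose, and Zmiz1, Cyr61, Mical2 and Fgd3, which fell. Each of these 8 lost its call without 1 or more single libraries, at edgeR adjusted p up to 0.60.

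In the other lists few nearest genes were called. Of 5 tested TGF-β and BMP genes that were nearest genes 0 were called by edgeR or DESeq2, with Id2 and Id3 at an unadjusted edgeR p below 0.05, while of all 44 tested genes of that list 7 fell. Of 4 nuclear receptor genes 1 fell, Nr1d1. Of 3 solute carrier and 3 MAPK and cell cycle kinase genes 0 were called by either tool, with 0 and 2 (Ccnd1 and Cdk20) at an unadjusted edgeR p below 0.05. Id3 read 136 and 116 CPM with EtOH and 141 and 153 with 4-OHT (edgeR adjusted p = 0.11). Cyr61 was the only nearest gene from the YAP and Hippo list, of whose 12 tested genes 2 fell. It fell from 736 and 739 CPM with EtOH to 602 and 626 with 4-OHT (log2 -0.27 ± 0.06, edgeR adjusted p = 0.0065). Its call was lost without EtOH replicate 1 or EtOH replicate 2.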

How the data were processed

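BMAL1 ChIP-seq, input and mRNA-seq of 2 libraries per group were used, grouped by the labels. Per the submitters' processing notes the build is mm10 and the tools include bedtools 2.25.0, featureCounts and DESeq2; no source used here gives the aligner. The authors deposited read counts per gene, made with featureCounts 1.5.0-p1 per the file headers, and read counts per region for 8 ChIP and input libraries. The regions carry names of MACS2 peaks of the control and were called on EtOH-treated cells, and no source used here says whether replicates were pooled. The deposited fold enrichment (ratio), −log10 p and q values and score per region entered no test. A deposited signal table, named RPKM by the authors, holds 5 plus reads per 10000000 library reads with no length term, from which the library totals followed. Levels are RP10M and depend on region length.

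Gene starts are the upstream ends of the outermost exons, per the deposited count table. Genes placed on several chromosomes or strands (133) were not used for starts or extents. RefSeq windows do not cover chromosome 18, which holds 4 of the regions. Of 16305 genes matched to RefSeq, 93.0% had a start within 100 bp of a RefSeq start. Tests on counts used edgeR 4.0.16 under R 4.3.3 (robust quasi-likelihood, Benjamini-Hochberg adjustment over all regions or genes, calls at an adjusted p below 0.05), with library totals and no further scaling for regions, and with TMM and the default filter for genes. CPM use all counted reads. The design had taken the signal for RPKM, and RP10M with a pseudocount of 0.1 replaced it in the class comparison. DESeq2 1.42.0, scaling, filter, input, distance, replicate and single-library alternatives were run. Fits were tested on simulated data.

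Members, gene lists and tests were chosen with earlier results of these data known. Regions named with values are the 10 strongest, the 8 largest and 6 smallest falls above the median level, those at circadian genes, those at called genes (up to 15 by adjusted p), 6 not called, up to 2 per other list and those at the distance limits. Further called genes (Dyrk3, Mical2, Fgd3, Ier5, Dusp6, Wisp1) and regions at Msl1, Mir23a and Mknk2 were named after their values were seen. The regions at Rcor2, Dgkh, Gm34455 and Elf2 are named outside these rules, for their windows. A further called gene is not reported here. Lists covered the clock core, CLOCK-BMAL1 targets, nuclear receptors, AP-1 and immediate early genes, TGF-β and BMP, extracellular matrix, solute carriers, small RNA genes, MAPK and cell cycle kinases, and YAP and Hippo.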

Additional observations from a re-analysis of the deposited data

How the results depend on the processing

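Scaling decided the occupancy counts. With TMM factors over the regions, 19 of the 399 were lower and 5 higher, at a median log2 change of -0.083, and 31 and 21 were above input with EtOH and 4-OHT. With DESeq2's own size factors, 11 were lower among 65 with an adjusted p, at a median of -0.062. All-region medians were -1.66 with library totals, 0.02 with TMM and 0.03 with DESeq2's factors, so values under these factors are relative to the typical region. Subtracting the input change gave 209 lower, with no count over all regions beside it. Limiting distances to over 2 and at most 10 kb gave 209 lower of 218. Leaving out a library gave 331 to 371 lower, 393 above input with EtOH and 162 to 283 with 4-OHT. DESeq2 with library totals gave 305 lower, the default count filter 374, regions of at least 50 bp 379, genes on several chromosomes or strands kept 357, gene spans over 3 Mb left out 390, and regions within 1 kb of a RefSeq start left out 338. The last 3 of these choices and the crossed pairing below were added after seeing the data. The length, gene and RefSeq choices also changed which regions were counted, so their counts are not out of 399. Of the 399, 6 are shorter than 50 bp and 49 lie within 1 kb of a RefSeq start.

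The difference from regions inside genes (-0.01) was 0.045 per kb of length, 0.073 for regions of at least 50 bp, and -0.056 to 0.030 without single libraries (0.0003 without EtOH replicate 2). Among the regions named, TMM turned the sign at Setd1b (1.03), Rere (0.66), Herpud1 (0.65), Mir3089 (0.64), Irf2bp2 (0.63, 0.015 and 0.090), Malat1 (0.62), Klf9 (0.59), Gadd45g (0.022), Junb (0.12 and 0.92), Tmem171 (0.28), Zmiz1 (0.69), Tmpo (1.14), BC022687 (0.93), Exosc6 (1.28), Mrps18a (1.08), Csf1 (1.18), Zfp740 (1.51), Nr4a3 (0.40), Ier3 (0.31), Slc38a2 (0.27), Slc1a4 (0.0043), Ccnd1 (0.40), Cyr61 (0.50) and Wisp2 (0.54). DESeq2's own factors turned Irf2bp2 (0.11) and Slc38a2 (0.28), and the input subtraction turned Junb (0.35), Tmpo (0.42) and BC022687 (0.032). Without single libraries the 5 bp Junb region ranged from -1.29 to 0.036, Zfp740 from -0.95 to 0.42, Klf9 mRNA from -0.011 to 0.082 and Per1 mRNA from -0.052 to 0.20. Of 55 called regions named, 13 kept their call in all alternatives, TMM included, among them the 9 strongest.

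For mRNA, the replicate block gave 6 rises and 8 falls. Deviations of same-numbered libraries correlated at -0.161 (mRNA), 0.034 (ChIP) and 0.008 (input). These correlations cannot settle whether equal numbers mark a shared batch, and the labels do not say. With the block, 373 regions were lower. The crossed pairing gave 39 rises and 25 falls. Leaving out a library gave 4 to 17 rises and 8 to 15 falls. The cause of these shifts was not tested. With 2 libraries per group, single libraries decide calls at low counts, and 15 of the 100 weakest regions, with EtOH means up to 16.0 RP10M, were not called.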
